A study of Bos taurus with 6 samples.

Results

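The high mobility group (HMG) chromatin proteins were examined as 10 genes: HMGN1 to HMGN5, HMGA1, HMGA2 and HMGB1 to HMGB3. They were taken by gene name from the deposited tables, in which each name stood on a single row, so 10 of the 32183 listed genes were members. RNA came from rumen epithelial primary cells (REPC) isolated from 1 Holstein bull calf, 2 weeks old and fed milk replacer, and both groups shared this donor. In the butyrate group, 3 cultures had received 5 mM butyrate and were collected at 24 h, and 3 control cultures had not received it. Expression was given as FPKM, fragment counts scaled to transcript length and library depth, which allows levels to be compared between genes. The family was chosen by the FPKM of these same 6 cultures, with their butyrate response already known, so the fold changes and calls of the 10 genes are a description and carry no p-value.

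HMG proteins are small, abundant, non-histone proteins that bind nucleosomes or bent DNA and loosen or remodel chromatin. HMGN proteins bind the nucleosome core and compete with linker histone, HMGA proteins bind the minor groove of AT-rich DNA through AT-hooks, and HMGB proteins bend DNA through HMG boxes. Butyrate, a product of rumen fermentation, inhibits histone deacetylases and arrests the growth of many cultured cells.

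Expression profiles of cultures of the same group correlated with r between 0.9948 and 0.9955 on log2(FPKM + 1) across genes, and those of different groups with r between 0.963 and 0.966. The FPKM of all genes summed to between 678035 and 681912 in control and between 619401 and 629037 after butyrate, and the read depth behind the values is unknown from these tables. All 12 epithelial markers of the list used were detected, with a summed FPKM of 2447 to 2558 in control and 5108 to 5200.2 after butyrate. EPCAM and PKP1 were low, at means of 0.54 and 1.99 FPKM in control and 3.33 and 8.67 after butyrate. By group means, KRT19, KRT8 and KRT14 changed most in FPKM, from 492, 1379.8 and 72.5 to 1953, 1971 and 500. KRT5 was lower after butyrate, at a mean of 356 against 401 in control, and CDH1, DSP and PKP3 overlapped between the groups. The other 8 were higher after butyrate. The 11 fibroblast genes summed to 4458 to 4606 and 6492 to 6827, and the 5 smooth muscle genes to 6468 to 6796 and 2849 to 3456, in control and after butyrate in that order, so the labelled epithelial cultures also expressed mesenchymal genes. Among the fibroblast genes, VIM and COL1A1 had control means of 2464 and 1149 FPKM. LUM, PDGFRA, PDGFRB and FAP had control means of 0.149, 0.306, 0.0203 and 0.015 FPKM. For smooth muscle, TAGLN, ACTA2 and CNN1 had control means of 3074, 2752 and 805 FPKM, against 0.662 for MYH11 and 0.367 for DES. DES was higher after butyrate and the others of this list lower. The 4 endothelial genes summed to 1.95 to 2.07 in control and 6.48 to 8.43 after butyrate. PECAM1 went from a mean of 1.54 to 3.95 FPKM and VWF from 0.456 to 3.31. The 5 immune genes summed to 5.12 to 7.15 in control and 7.23 to 9.38 after butyrate. CD14 made up most of that sum, with means of 5.57 and 6.8 FPKM. PTPRC, MS4A1 and CDH5 were at 0 in all 6 cultures. The part of these shifts in the HMG values was not tested. In bulk RNA, fewer cells of a type and less RNA per cell cannot be told apart.

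In the control cultures the HMG genes covered a wide range of levels, from HMGN2 at a mean FPKM of 427 ± 20.2 (SD, n = 3) to HMGA2 at 1.25 ± 0.627 (SD, n = 3). HMGN2 stood above 98.2% of the 15813 tested genes, HMGB1 above 96.9% and HMGN1 above 96.8%. HMGB1 and HMGN1 overlapped in their control values, whereas every other pair of neighbours in the order HMGN2, HMGB1, HMGN1, HMGN3, HMGB2, HMGA1, HMGN4, HMGN5, HMGB3 and HMGA2 was separated by all 3 values, with HMGA2 below HMGB3. HMGB4, a family member known from testis, was listed at 0 in all 6 cultures. After butyrate the order began with HMGN1 and HMGN3, whose values overlapped, followed by HMGB1 and HMGN2, which also overlapped. HMGA1 overlapped with HMGN4, and the values of HMGN5, HMGB3 and HMGA2 at the low end overlapped in that order.

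**Figure D1:**
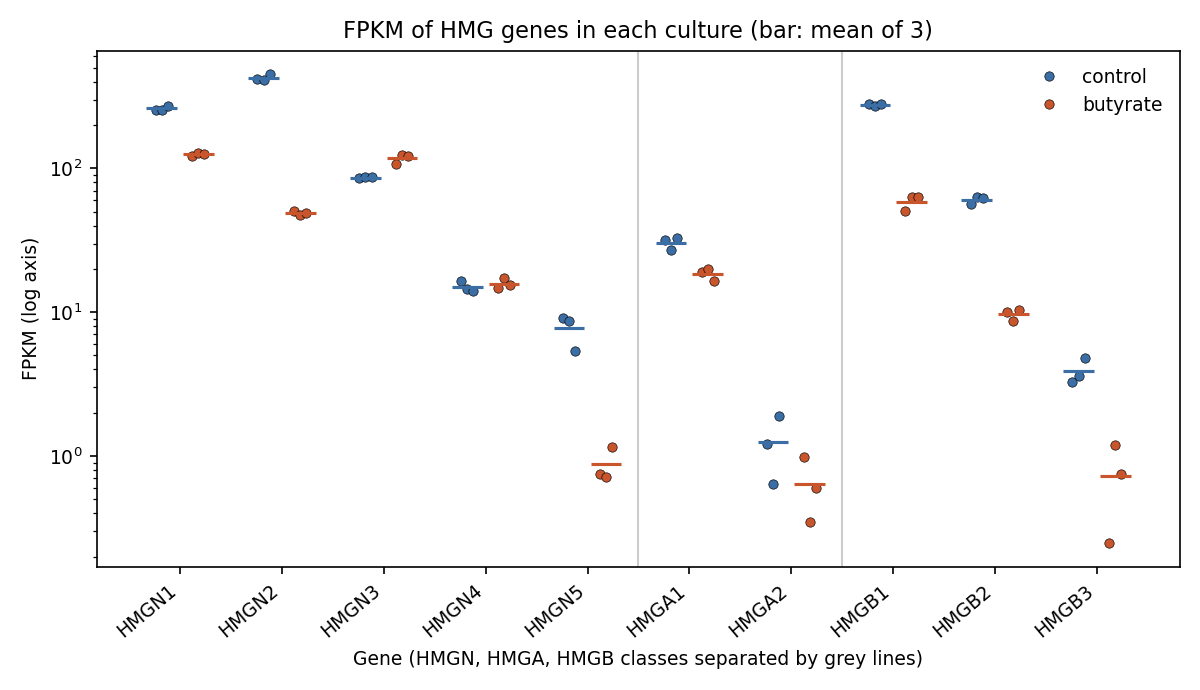
FPKM (log axis) of each HMG gene in the 3 control and the 3 butyrate cultures, where points are cultures and bars are group means. The points of HMGN2, HMGB1 and HMGB2 after butyrate lie far below those of control, those of HMGN3 lie above, and those of HMGN4 and HMGA2 overlap.

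HMGN2 (chromosome 2, 127251765 to 127255331, UMD3.1) encodes one of the most widely expressed nucleosome-binding HMGN proteins. In the control cultures, in order of replicate number here and throughout, it was measured at 417, 414 and 451 FPKM, and in the butyrate cultures at 50.5, 47.7 and 48.8. The groups were far apart, and the butyrate mean of 49.0 ± 1.43 (SD, n = 3) was 11.5% of the control mean. On the log2 scale the difference, butyrate minus control, was -3.12 (standard error, SE, 0.05).

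HMGN1 (chromosome 1, 140906949 to 140913324) encodes its close relative, which is also found at enhancers and promoters. Its FPKM was 256, 254 and 272 in control and 121, 128 and 126 after butyrate. All butyrate values lay below all control values, at 48.0% of the control mean, with a log2 fold change of -1.06 (SE 0.05). HMGN1 thus differed less between the groups than HMGN2, although the control levels of both genes were high.

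HMGN3 (chromosome 9, 19000360 to 19035933), an HMGN gene with marked expression in endocrine and eye tissue, went the other way. Its FPKM was 85.7, 86.4 and 86.5 in control and 107, 123 and 122 after butyrate. The lowest butyrate value exceeded the highest control value, with a mean of 117 ± 8.57 (SD, n = 3) against 86.2 ± 0.454 (SD, n = 3) and a log2 fold change of 0.44 (SE 0.06).

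HMGN4 (chromosome 23, 31322595 to 31330574), a close relative of HMGN2 in sequence, had an FPKM of 16.5, 14.5 and 14 in control and 14.7, 17.3 and 15.4 after butyrate. The groups overlapped, and the log2 fold change was 0.08 (SE 0.10). Uniquely mapped reads alone were used by the study, so reads that HMGN2, HMGN4 and other near-identical copies share are not in these values, and levels of such genes are uncertain to that extent.

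HMGN5 (chromosome X, 70619706 to 70628465) encodes an HMGN protein with a long acidic C-terminal tail. It was expressed at 9.13, 8.71 and 5.36 FPKM in control and at 0.754, 0.718 and 1.16 after butyrate. The groups did not overlap, with a butyrate mean at 11.3% of control and a log2 fold change of -2.99 (SE 0.26), or -2.20 with a pseudocount of 1 in place of 0.1. Its precision was lower than that of HMGN2, since the deposited confidence bounds ran from 2.56 to 12.6 over the control cultures and from 0 to 2.49 over the butyrate cultures.

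HMGB1 (chromosome 12, 30349895 to 30358978) encodes the abundant DNA-bending protein that also acts as an alarm signal outside the cell. Its FPKM was 282, 271 and 278 in control and 50.4, 63.1 and 62.8 after butyrate. The butyrate mean of 58.8 ± 7.26 (SD, n = 3) was 21.2% of the control mean of 277 ± 5.70 (SD, n = 3), and the log2 fold change was -2.24 (SE 0.08).

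HMGB2 (chromosome 8, 5583683 to 5586018), a paralogue that is typically high in proliferating cells, was expressed at 56.7, 63.3 and 61.9 FPKM in control and at 9.98, 8.74 and 10.4 after butyrate. The groups did not overlap, and the log2 fold change was -2.63 (SE 0.08), at 16.0% of control.

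HMGB3 (chromosome X, 33794395 to 33801637), which is best known from embryonic and haematopoietic progenitor cells, was the least expressed of the class. Its FPKM was 3.26, 3.61 and 4.79 in control and 0.247, 1.20 and 0.747 after butyrate. All butyrate values were lower, but their spread was wide, with a coefficient of variation of 65.1%, and the log2 fold change of -2.44 had an SE of 0.44. It was -1.52 with a pseudocount of 1 and -1.91 without butyrate replicate 1. For HMGB3 the lowest confidence bound in control and the highest after butyrate met at 2.02.

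HMGA1 (chromosome 23, 8258735 to 8268930) encodes an architectural factor common in embryonic and dividing cells. Its FPKM was 31.6, 26.9 and 32.6 in control and 19.0, 20 and 16.4 after butyrate. The groups were apart, and the log2 fold change of -0.71 (SE 0.10) was a smaller difference than that of each HMGB gene.

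HMGA2 (chromosome 5, 48053701 to 48200546), an oncofetal paralogue under let-7 control in other systems, was detected at a low level, with deposited confidence bounds that reached 0 in control. Its FPKM was 1.21, 0.644 and 1.90 in control and 0.980, 0.349 and 0.599 after butyrate. The groups overlapped, and the log2 fold change of -0.84 had an SE of 0.44. A difference in HMGA2 was not resolved at this precision.

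Summed over its genes, the HMGN class went from 797 ± 27.7 FPKM in control to 308 ± 11.5 after butyrate (SD, n = 3 each), a log2 ratio of -1.37. The HMGB class went from 341 ± 3.60 to 69.2 ± 7.45, a log2 ratio of -2.30, and the HMGA class from 31.6 ± 3.65 to 19.1 ± 1.82, a log2 ratio of -0.73. In control, HMGA1 held most of the HMGA sum, HMGB1 most of the HMGB sum, and HMGN2 and HMGN1 most of the HMGN sum. Their control means were 30.4, 277, 427 and 260.4 FPKM in that order. The HMGN sum was lower although HMGN3 was higher after butyrate and HMGN4 overlapped between the groups. The sum of all 10 genes was 1159, 1142 and 1208 FPKM in control and 375, 409.8 and 404 after butyrate.

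The make-up of this sum also differed between the groups. HMGN2 held 36.5% ± 0.690 (SD, n = 3) of it in control and 12.4% ± 0.946 (SD, n = 3) after butyrate. HMGN3 went from 7.37% ± 0.204 to 29.6% ± 0.837, and HMGN1 from 22.3% ± 0.243 to 31.5% ± 0.675. The HMGB class went from 29.2% to 17.4% of the sum, the HMGN class from 68.1% to 77.7% and the HMGA class from 2.70% to 4.83%. A share can be higher while the level is lower, as for HMGN1 and HMGA1.

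**Figure D2:**
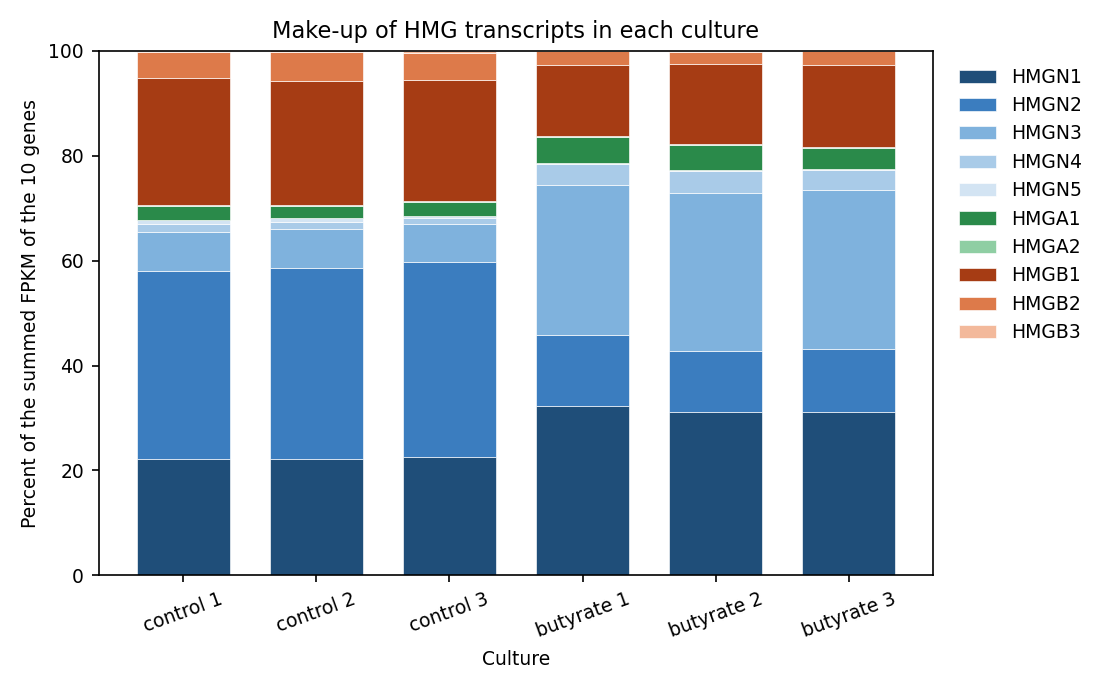
Percent of the summed FPKM of the 10 HMG genes held by each gene, as 1 stacked bar for each of the 6 cultures. The HMGN2 segment is 36.0% to 37.3% of the control bars and 11.6% to 13.5% of the butyrate bars, and the HMGN3 segment is 7.16% to 7.57% and 28.6% to 30.2%.

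Ratios between genes of the same culture do not depend on a scaling factor that all genes of the culture share. The ratio of HMGN2 to HMGN1 was 1.63, 1.63 and 1.66 in control and 0.416, 0.373 and 0.389 after butyrate. HMGN2 therefore exceeded HMGN1 in each control culture and was below it in each butyrate culture, a log2 difference of -2.06 (SE 0.05). The ratio of HMGN2 to HMGN3 went from 4.96 ± 0.223 to 0.420 ± 0.0440 (SD, n = 3 each). The ratio of HMGN1 to HMGB1 was 0.907, 0.937 and 0.978 in control and 2.41, 2.03 and 2.0 after butyrate, a reversal of order between these genes. By contrast, the ratio of HMGB1 to HMGB2 was 4.97, 4.28 and 4.49 in control and 5.05, 7.22 and 6.06 after butyrate. Its log2 difference of 0.40 (SE 0.16) was small beside the changes of level of both genes.

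**Figure D3:**
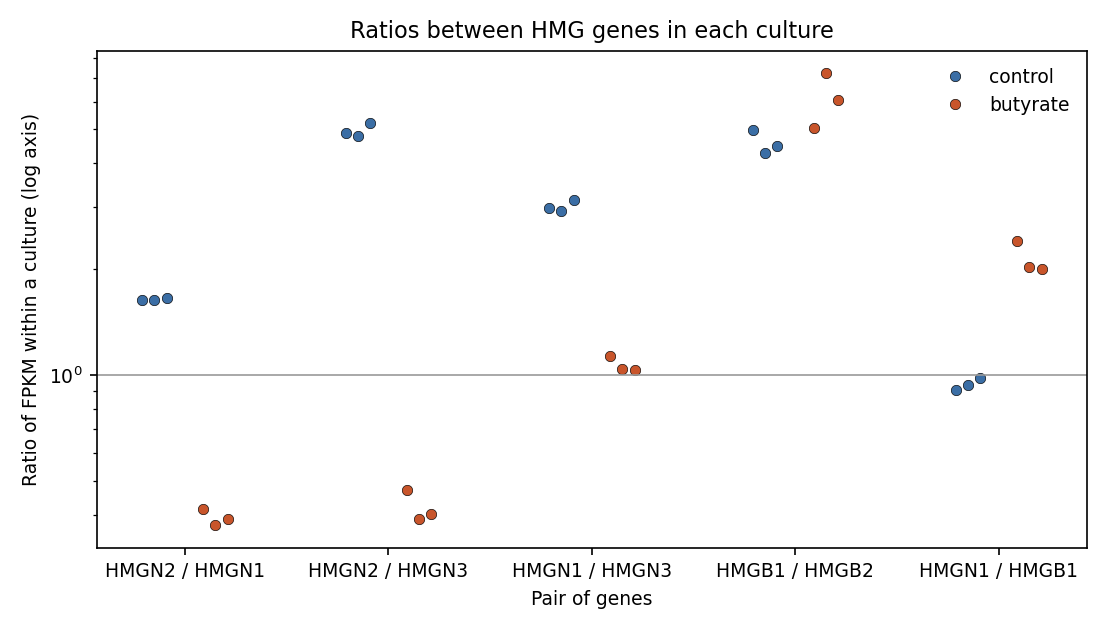
Ratio of FPKM between pairs of HMG genes within each culture (log axis), with 3 control and 3 butyrate points per pair and a grey line at equal levels. The HMGN2 to HMGN1 ratio passes from about 1.64 to 0.393 on average, while the HMGB1 to HMGB2 ratio moves from 4.58 to 6.11.

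All 10 genes averaged at least 0.1 FPKM over the cultures and were tested. The study's definition of differentially expressed genes (DEGs) asks for a log2 fold change past 2 and p under 0.05 after Bonferroni correction. The study made its own calls with Cufflinks, so the DEGs counted here with limma are not the study's DEGs. With limma, 4 HMG genes met the thresholds, namely HMGN2, HMGN5, HMGB1 and HMGB2, all lower after butyrate. Over all tested genes, 1.51% were DEGs in that direction and 2.46% in the other, in which there was no HMG gene. HMGN5 was at the edge of the Bonferroni threshold and lost the DEG call when control replicate 1, control replicate 2 or any of the 3 butyrate replicates was left out, with a log2 fold change between -3.19 and -2.86 in these fits and 3 HMG genes still called. HMGB3 had a fold change past the threshold but did not meet the Bonferroni threshold, and HMGN1 met the p threshold with a log2 fold change inside 2. With a Benjamini-Hochberg (BH) adjusted p under 0.05 and no limit on the fold, 7 HMG genes were called lower, where 25.9% of all tested genes were, and HMGN3 was called higher, where 32.5% were. HMGN4 and HMGA2 were not called. HMGA2 was called lower when control replicate 2 was left out, with a log2 fold change of -1.21.

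All 3 butyrate cultures lay below all 3 control cultures in 7 HMG genes and in 28.9% of all tested genes, and above them in HMGN3 and in 36.1%. The median log2 fold change was -1.65 over the HMG genes and 0.10 over all tested genes. The contrast had been used to choose the genes, so nothing is read from these counts. Among 6433 well expressed genes (10 FPKM or more on average), which include 7 HMG genes, 1.73% were DEGs with lower values, 2.16% were DEGs with higher values and 42.2% were called lower by BH.

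**Figure D4:**
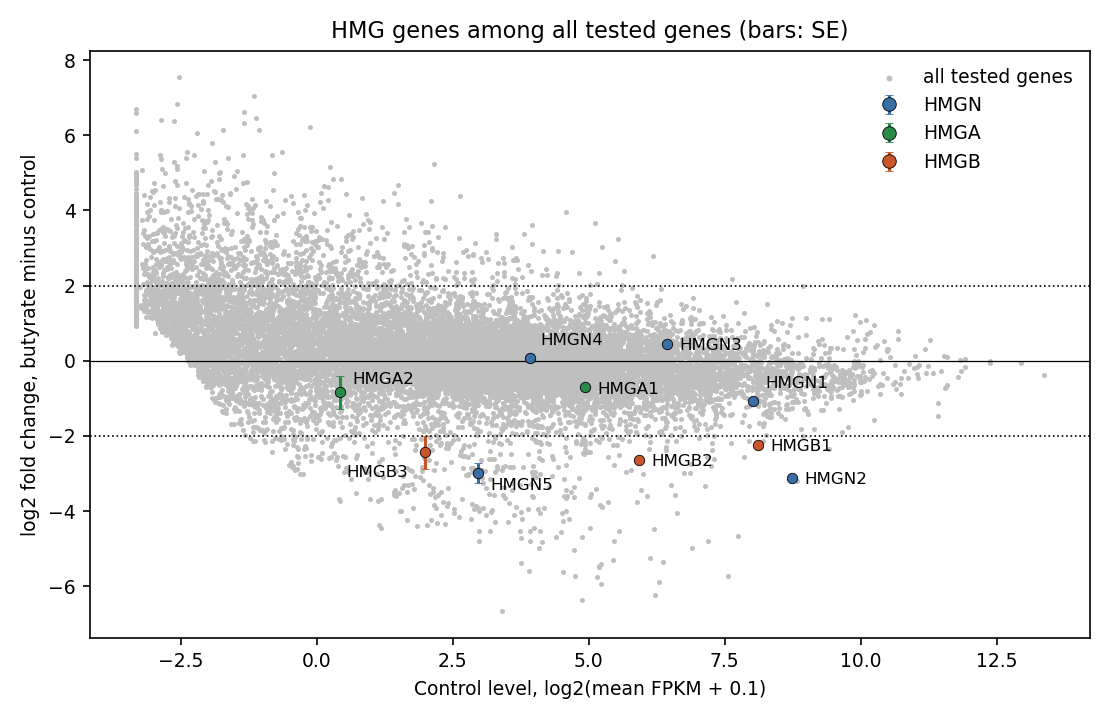
Log2 fold change (butyrate minus control) against the control level, log2(mean FPKM + 0.1), for all 15813 tested genes in grey and the HMG genes in colour with SE bars. Dotted lines mark a log2 fold change of 2 in each direction, and HMGN2 at -3.12 and HMGB1 at -2.24 lie below the line at a high control level.

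The genes next to the HMG genes on the chromosome were read as a description of position. Of the 20 nearest tested genes, 1 on each side of each HMG gene, 7 were lower and 4 higher after butyrate by BH and 9 were not called. Over all tested genes 25.9% were lower and 32.5% higher. The neighbours had a median log2 fold change of -0.21, against 0.10 over all tested genes. TRNAW-CCA, next to HMGB1, was 36.4 FPKM in control replicate 3 and 0 in the other cultures. No neighbour was a DEG in limma. DHDDS, a dolichol synthesis enzyme 1238 bp from HMGN2, was lower with a log2 fold change of -0.56 (SE 0.12, limma, BH-adjusted p = 0.00394). RPS6KA1, a kinase of the ERK pathway on the other side of HMGN2, was higher with 0.42 (SE 0.06, limma, BH-adjusted p = 0.000416). GALNT7 and SAP30, on the sides of HMGB2, had log2 fold changes of -0.44 and -0.43, against -2.63 for HMGB2 itself. LOC521580 next to HMGN4, LOC534913 next to HMGN1 and LLPH next to HMGA2 were lower with -1.11, -0.83 and -0.76. LOC100126544, 121 bp from HMGA1, was lower with -0.44, against -0.71 for HMGA1. SH3BGRL2, next to HMGN3, was higher with a log2 fold change of 1.27 (SE 0.13, limma, BH-adjusted p = 5.69e-05), at 444955 bp from it. These neighbours are named after their values were seen.

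Other proteins share the HMG box with the HMGB class, and 32 of their genes were examined. Of the 28 that could be tested, 10 fell and 9 rose by BH and 9 were not called, and 4 more were listed at levels too low to test. The median log2 fold change was -0.08. Over all tested genes 25.9% were lower and 32.5% higher. The split turned with the scaling, to 12 lower and 5 higher by quantile normalization and to 9 lower and 12 higher after rescaling to TPM, values with the same sum in each culture. The number that rose was 5 without control replicate 2, 6 without butyrate replicate 2 and 5 without butyrate replicate 3. TOX, a regulator of lymphocyte development, fell from an FPKM of 3.25 ± 0.552 to 0.762 ± 0.40 (SD, n = 3 each), a log2 fold change of -2.08 (SE 0.38, limma, BH-adjusted p = 0.00153). SOX15, WDHD1 and SSRP1 fell with log2 fold changes of -1.36, -1.16 and -1.33. SOX12 rose from 0.197 ± 0.171 to 2.29 ± 0.391, or by 3.24 on the log2 scale (SE 0.53, limma, BH-adjusted p = 0.00076). SOX11, SOX4 and SOX9, which encode transcription factors, rose by 1.58 (SE 0.50), 1.52 (SE 0.09) and 1.3 (SE 0.31) on the log2 scale. SOX4 was the most abundant of them, at 29.7 ± 2.55 FPKM in control and 85.7 ± 9.76 after butyrate. The values of SOX11 overlapped between the groups, and SOX9 averaged only 0.631 FPKM in control.

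SSRP1 is the HMG-box subunit of FACT, a histone chaperone it forms with SUPT16H. SSRP1 was 159 ± 1.99 FPKM in control and 63.3 ± 3.58 after butyrate (limma, BH-adjusted p = 2.2e-07). SUPT16H was 25.4 ± 0.746 and 26.8 ± 1.09, with a log2 fold change of 0.08 (SE 0.06, limma, BH-adjusted p = 0.338). The comparison of these subunits was chosen after their values were seen, and the difference between them was not tested.

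Of 27 genes that encode partners, receptors or modifiers of HMG proteins, 25 were listed and 24 tested. By BH 9 fell, 5 rose and 10 were not called, beside 25.9% lower and 32.5% higher over all tested genes. The partner genes had a median log2 fold change of -0.16, and the split was 7 lower and 6 higher after rescaling to TPM and 11 lower and 5 higher by quantile normalization. Those that fell included ANP32B and ANP32E, acidic histone chaperones, with log2 fold changes of -1.56 (SE 0.05, limma, BH-adjusted p = 6.21e-08) and -1.19 (SE 0.07, limma, BH-adjusted p = 2.41e-06). NME1, a nucleoside diphosphate kinase, and XPO1, the nuclear export receptor, fell with log2 fold changes of -1.12 and -1.02. SET and APEX1, found with HMGB2 in the SET complex, went from 182 ± 3.38 to 94.8 ± 9.08 FPKM (limma, BH-adjusted p = 5.29e-06) and from 98.6 ± 7.41 to 55.0 ± 1.78 FPKM (limma, BH-adjusted p = 8.71e-06), and these are named after their values were seen.

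Of the 5 partner genes that rose, RPS6KA5, TLR2 and AGER were below 1 FPKM on average in control. RPS6KA5, a kinase that phosphorylates HMGN1, rose from 0.267 ± 0.0430 to 1.28 ± 0.199 FPKM, or by 1.90 on the log2 scale (SE 0.27, limma, BH-adjusted p = 0.000346). TLR2 and AGER, receptors for extracellular HMGB1, rose with log2 fold changes of 1.69 and 1.36, from 0.193 ± 0.0928 to 0.818 ± 0.168 and from 0.925 ± 0.285 to 2.52 ± 0.620 FPKM. TLR4, a further HMGB1 receptor, was 1.79, 1.48 and 1.85 FPKM in control and 1.27, 1.49 and 1.10 after butyrate, and was not called (named after its values were seen). IGF2BP3, an RNA-binding protein, rose from 9.58 ± 1.29 to 13.6 ± 1.63 FPKM, a log2 fold change of 0.51 (SE 0.13, limma, BH-adjusted p = 0.00862). Its relative IGF2BP2, the remaining one, rose from 32.9 ± 1.3 to 39.8 ± 1.66 FPKM, a log2 fold change of 0.27 (SE 0.06, limma, BH-adjusted p = 0.00507), and is named after its values were seen.

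Of 15 genes expressed in cycling cells, all 15 fell by BH and 14 were DEGs. Over all tested genes, 25.9% were lower by BH and 1.51% were DEGs with lower values. Their median log2 fold change was -4.26. Their summed FPKM was 732 to 762 in control and 51.2 to 54.9 after butyrate. CCNA2, PLK1, CCNB1 and RRM2 fell with log2 fold changes of -5.76, -5.40, -5.37 and -4.79. They shared the direction of the 7 HMG genes called lower by BH. The part of the cycling-cell genes in the HMG values was not tested.

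**Figure D5:**
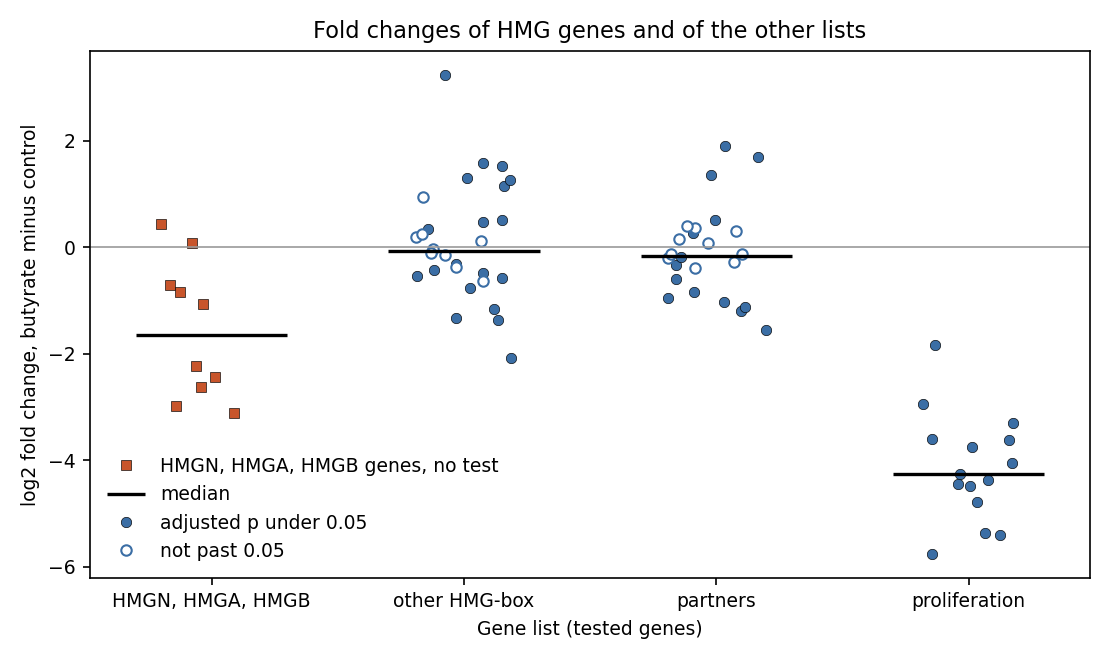
Log2 fold change (butyrate minus control) of each tested gene in 4 lists, with black bars at the medians. HMG genes are squares with no test, filled circles are genes of other lists with a BH-adjusted p under 0.05, and open circles are the rest. The medians are -1.65 for the HMG genes, -0.08 and -0.16 for the HMG-box and partner lists and -4.26 for the cycling-cell genes.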

How the data were processed

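The authors trimmed the reads with Trim Galore 0.4.1, aligned them with STAR, kept uniquely mapped reads and deposited FPKM values per gene from Cufflinks with lower and upper confidence bounds. The submitters' processing notes name UMD3.1. Replicates are called biological in the methods, but all came from 1 calf, so p-values measure the spread between its cultures.

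Tables were joined by position. Starts are printed 1-based, because in 2921 of 22203 genes compared the RefSeq length equals end minus start, against 248 for that plus 1. Chromosome names are those most genes of a sequence have in ARS-UCD2.0, which gave no coordinates. A failed estimate removed 2 genes.

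FPKM values were put on a log2 scale after adding 0.1, and the 15813 genes averaging 0.1 FPKM or more were fitted in limma 3.58.1 (R 4.3.3) with the trend option. This scale understates changes of low genes. The fit was tested on simulated data. The members and lists were chosen with earlier results of these data known. Named genes are all members and, of the HMG-box, partner and cycling-cell lists, up to 4 in each direction with the largest fold change among those past BH, with exceptions stated. Alternatives were other pseudocounts, filters, scalings and thresholds, no trend, the replicate block and each culture left out. Protein and promoter sequences and uncharacterised HMG-like loci were not analysed here.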

Additional observations from a re-analysis of the deposited data

How the results depend on the processing

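Each class sum and each of the 10 HMG genes kept the direction of its log2 change in every alternative run that included it. The direction of HMGN4 was not resolved, at 0.08 (SE 0.10), and its values with a culture left out were 0.01 to 0.15. Of the class sums and counts recomputed, 6 moved by more than the replicate SD or 1.5 times and 166 did not. Runs with only the highest row of each name could not move a class sum, since each name stood on a single row. A count that went from 4 to 3 is within 1.5 times and stands among those that did not move. The HMGN class sum, a log2 ratio of -1.37, was -1.25 after rescaling to TPM and -1.21 by quantile normalization. These scalings moved the median log2 fold change of all tested genes from 0.10 to 0.24 and -0.05, and HMGN1 from -1.06 to -0.94 and -0.88. HMG-box genes that rose numbered 9, against 5 by quantile normalization, 12 after rescaling to TPM and 5 to 10 with a culture left out. Partner genes that rose numbered 5, against 3 where a mean of 1 FPKM was required and fewer genes were tested. HMG genes called DEG and lower numbered 4, and 3 to 5 under the alternatives. A fold threshold of 1 on the log2 scale added HMGN1, and the call of HMGN5 was lost at a pseudocount of 0.01, without a filter, after rescaling to TPM, without the trend and with a culture left out (except control replicate 3). HMGA2 was called lower by BH with quantile normalization and was not tested where a mean of 1 FPKM was required.

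With the replicate number as a block, 3 HMG genes were DEGs and lower, HMGN5 being lost, and 7 were lower and 1 higher by BH. Same-numbered cultures deviated from their group means with correlations of 0.0228, -0.00431 and 0.00177 across genes, so the numbers were not taken to pair the cultures, and not every culture correlated best with its own number. Over all genes the block left 226 DEGs higher and 183 lower, against 389 and 238.

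The low levels of HMGA2, HMGB3 and HMGN5 limit their precision.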
